A study of Chionodraco hamatus and Gymnodraco acuticeps and Trematomus bernacchii with 9 samples.

Results

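The head kidney of the icefish Chionodraco hamatus was compared with the head kidney of Gymnodraco acuticeps, an Antarctic dragonfish with red blood. The comparison used 6 of the 9 libraries of the series, the 3 labelled C. hamatus and the 3 labelled G. acuticeps, taken by their labels. The comparison and the gene lists below were chosen with earlier results of these data known. All were bulk RNA libraries made from frozen head kidney by the same protocol, and the labels name no treatment, age or sex. The labels do not say whether the 3 libraries of a species came from separate fish, so a p-value here reflects the spread among the libraries alone, which may be technical. Anything besides species that set the fish of the 2 groups apart cannot be told apart from species.

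The head kidney is where bony fish form most of their blood cells, and it also holds B cells, phagocytes and the fish counterpart of the adrenal gland, with interrenal (steroid-making) and chromaffin (catecholamine-making) cells. In vertebrates with red blood, erythroid precursors driven by factors such as GATA1, TAL1 and KLF1 make alpha and beta globin chains, build heme from glycine and succinyl-CoA, take up iron through the transferrin receptor, and assemble a membrane skeleton anchored on the anion exchanger band 3. Icefishes are the only vertebrate family whose adults lack hemoglobin. TGF-beta and BMP ligands act through paired serine/threonine kinase receptors on SMAD proteins, and the title of the series names this pathway in the suppression of red blood cell formation in icefish.

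The deposited counts are listed by UniProt entry name, a protein mnemonic followed by the code of an organism, such as HBA2_GOBGI. Reads of 1 protein can therefore sit on different rows in the 2 species, and a row at 0 does not show that a gene is silent. For that reason each count below was taken on the rows and again after summing rows that share a mnemonic, and levels are given after summing unless a row is named. Levels are CPM, counts scaled to the size of the library and by TMM factors, in the order of replicates 1, 2 and 3. Differences are log2 fold changes of C. hamatus minus G. acuticeps from edgeR's quasi-likelihood test, and calls were made at p-values under 0.05 after Benjamini-Hochberg adjustment. With a species at 0 in every library, the fold is a lower bound against a floor of 3 counts per library. With 1 to 3 counts in a species, the ratio of the higher to the lower depth-scaled count is given with its exact interval. Both allow for counting error alone. Where the libraries left of a species in a fit are all at 0, the size of the log2 fold change is not measured.

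Total counts were 5172770, 2501922 and 4294414 in the C. hamatus libraries and 3052436, 4310369 and 12055675 in the G. acuticeps libraries. Of the fixed tissue markers, the blood-forming gene RUNX1 was counted in all 6 libraries (74.5, 21.6 and 17.1 CPM in the icefish and 150.3, 97.9 and 66.3 CPM in G. acuticeps), RAG1 was at 0 in all 6, and the tubule markers S12A1 and CUBN had at most 0.397 CPM. The libraries differed in adrenal and muscle markers. The 11 interrenal mnemonics summed to 99.3, 224 and 26794 CPM in C. hamatus and 242, 151 and 153 CPM in G. acuticeps. The 22 chromaffin and nervous mnemonics summed to 94.4, 8985 and 4411 CPM in C. hamatus and 111, 67.2 and 90.6 CPM in G. acuticeps. In C. hamatus replicate 1 the chromaffin sum lay within the range of G. acuticeps and the interrenal sum below it, though single markers such as SN25A and 3BHS7 stood above all of G. acuticeps. Replicate 2 was above G. acuticeps in the chromaffin sum alone, and replicate 3 in both. The 32 skeletal muscle mnemonics summed to 1679, 1999 and 1832 CPM in C. hamatus and 23333, 32297 and 38603 CPM in G. acuticeps. The G. acuticeps sums lay mostly on the skeletal actin mnemonic ACTS. Without ACTS the sums were 1551, 1799 and 1820.2 CPM in C. hamatus and 4651, 2042 and 9034 CPM in G. acuticeps. Across tested rows, Spearman correlations were 0.778 to 0.836 within C. hamatus, 0.935 to 0.972 within G. acuticeps and 0.362 to 0.491 between the species. Libraries of 1 species shared tissue and species, and the reason for the lower agreement within C. hamatus was not tested. The part of adrenal and muscle RNA in the differences below was not tested beyond the fits without single libraries and with C. hamatus replicate 1 alone.

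Nearly equal shares of the table differed at both levels. Of 7938 rows tested, 3696 (46.6%) were called, 2207 (27.8%) higher and 1489 (18.8%) lower in C. hamatus. After summing, 3437 of 7554 mnemonics (45.5%) were called, 2048 (27.1%) higher and 1389 (18.4%) lower. The median log2 fold change was 0.159 over all rows tested and 0.143 over all mnemonics tested. Of the called mnemonics, 197 were at 0 in every C. hamatus library and 260 at 0 in every G. acuticeps library. Counts of list members in the full fit are to be read against these shares. With G. acuticeps replicate 1, 2 or 3 left out, higher mnemonics numbered 1803, 1513 and 1639 and lower ones 1068, 954 and 1070. Those fits tested 8085, 8063 and 8061 mnemonics and kept 2628, 2315 and 2545 of the 3437 calls. Without C. hamatus replicate 1, 2 or 3, higher mnemonics numbered 2258, 1935 and 2183 and lower ones 1519, 1285 and 1737. Those fits tested 8006, 7757 and 7751 mnemonics and kept 3142, 2966 and 3222 of the calls. Calls lost below with a library left out are to be read against these losses over all mnemonics. Single genes said below not to overlap between the species were mostly named for large changes, so this adds no support to their calls. The share of all mnemonics without overlap is not given.

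**Figure D1:**
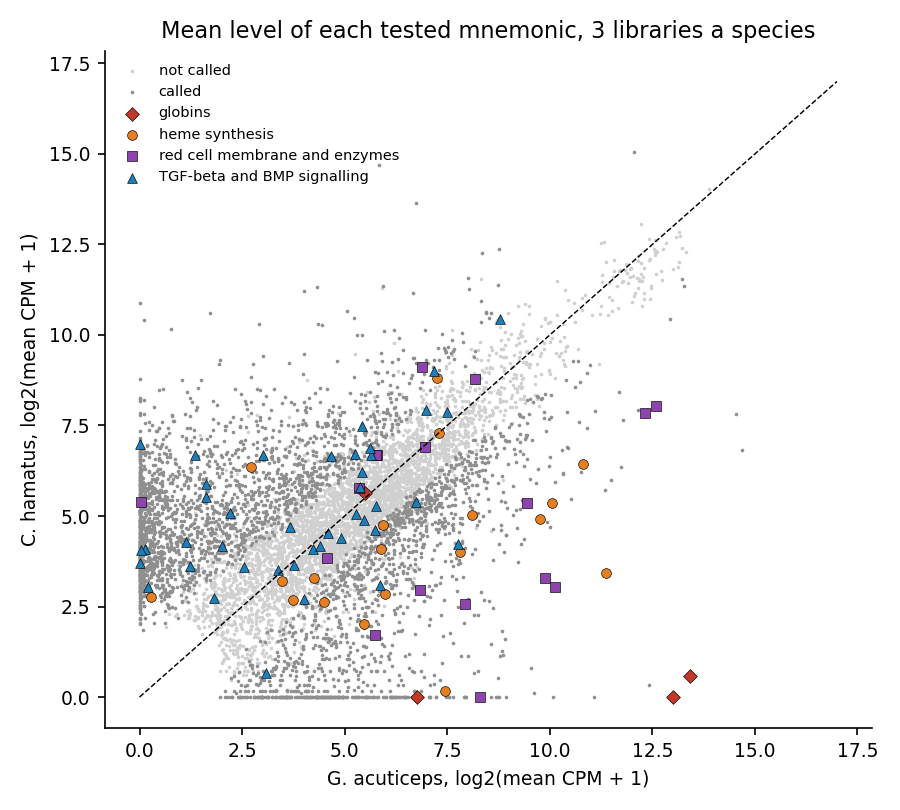
Each point is a tested mnemonic, with its mean level over the 3 G. acuticeps libraries on the x axis and over the 3 C. hamatus libraries on the y axis, both as log2(mean CPM + 1), grey by whether it was called and coloured for 4 lists. The 3 called globins lie at the foot of the plot, at or near 0 in C. hamatus, and most TGF-beta and BMP members lie above the dashed line of equal level.

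The hemoglobin chains were read in G. acuticeps and almost absent from C. hamatus. The alpha chain HBA2 stood at 7337, 8105 and 9214 CPM in G. acuticeps and at 0 in every C. hamatus library, at least 10562-fold lower (adjusted p = 0.000254). The beta chain HBB2 stood at 11097, 10009.9 and 11555 CPM in G. acuticeps and at 0.464, 1.04 and 0 CPM in C. hamatus (log2 fold change -14.51, SE 1.21, adjusted p = 0.000254). HBB2 came to -15.46 with C. hamatus replicate 2 left out and -13.85 with C. hamatus replicate 3 left out. The alpha-D chain HBAD, a minor chain, had 138, 90.5 and 94.7 CPM against 0, at least 138-fold lower (adjusted p = 0.00027). The 3 G. acuticeps libraries lay close together for HBA2 and HBB2, and no library of one species came near those of the other. All hemoglobin mnemonics together took 1.99, 1.72 and 1.72% of the G. acuticeps counts. Neuroglobin (NGB1), a globin of nerve cells, was not called, with 20.6, 88.7 and 36.9 CPM against 41.5, 51.9 and 38.2 CPM, and myoglobin (MYG) had too few reads to test, with at most 3.01 CPM. Of the 7 globin mnemonics, 4 were tested and 3 (75.0%, against 18.4% of all) were lower. Bulk RNA cannot tell fewer red cell precursors from less of these RNAs per cell, here or for any other cell type below.

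Of 22 heme mnemonics, which cover synthesis, transport and the breakdown of heme, 19 were tested. Of these, 11 (57.9%, against 18.4% of all mnemonics) were lower and 1 (5.26%, against 27.1%) was higher, with a median log2 fold change of -2.04. Of the 11, HMOX and BLVRB act in the breakdown of heme. Heme members called higher numbered 2 with C. hamatus replicate 1 or G. acuticeps replicate 1 left out and 0 of 19 tested with G. acuticeps replicate 2 left out. The erythroid form of 5-aminolevulinate synthase, HEM0, which makes the first committed step in red cell precursors, had 12.3, 7.65 and 9.52 CPM in C. hamatus and 2861, 2405 and 2711 CPM in G. acuticeps (log2 fold change -8.07, SE 0.58, adjusted p = 0.000254). Its housekeeping counterpart HEM1 was not called (log2 fold change 1.55, adjusted p = 0.0698), at 168, 624 and 545 CPM in C. hamatus and 75.1, 151 and 230.3 CPM in G. acuticeps. The species overlapped for HEM1 and lay far apart for HEM0, and the difference between the 2 fold changes was not tested.

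Further along the pathway, porphobilinogen synthase (HEM2) had 31.1, 19.8 and 43.2 CPM against 215, 312 and 298 CPM (log2 fold change -3.13, SE 0.44, adjusted p = 0.000896). Porphobilinogen deaminase, HEM3, had 17.9, 22.6 and 79.3 CPM against 1867, 985 and 326 CPM (log2 fold change -4.72, SE 0.90, adjusted p = 0.00317). HEM3 came to -5.72 with C. hamatus replicate 3 left out and -4.08 with G. acuticeps replicate 1 left out. Its G. acuticeps libraries spread widely, yet the lowest stood above the highest C. hamatus library. Coproporphyrinogen oxidase, HEM6, had 29.5, 39 and 19.8 CPM against 1087, 798 and 714 CPM (log2 fold change -4.88, SE 0.50, adjusted p = 0.000295). Protoporphyrinogen oxidase, PPOX, had 23.7, 9.39 and 12.3 CPM against 296, 210.3 and 165 CPM (log2 fold change -3.88, SE 0.51, adjusted p = 0.000681). Of the mitochondrial carriers, mitoferrin-1 (MFRN1), which brings iron into mitochondria of erythroid cells, had 2 counts in all of C. hamatus and 144, 154 and 224 CPM in G. acuticeps, a ratio of 1178 (95% interval 326 to 9732). The MFRN1 ratio came to 763 with C. hamatus replicate 1 left out. Its relative of other tissues, mitoferrin-2 (MFRN2), was not called (log2 fold change -1.22, adjusted p = 0.0579). TM14C, a mitochondrial membrane protein needed for heme synthesis in erythroid cells of mice and zebrafish, had 95.1, 58.4 and 102 CPM against 1552, 1732 and 2124 CPM (log2 fold change -4.4, SE 0.50, adjusted p = 0.00039). The 1 higher member, heme oxygenase 2 (HMOX2), which degrades heme, was near 0 in G. acuticeps and low in C. hamatus (5.34, 9.74 and 2.38 CPM), while heme oxygenase 1 (HMOX) and biliverdin reductase B (BLVRB) were lower (log2 fold changes -1.87 and -3.36).

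Of 31 erythroid regulators, 20 were tested, 8 were lower, 2 were higher and 10 were not called. The share of lower members was above the 18.4% of all mnemonics, and that of higher members under the 27.1% of all. TAL1, a DNA-binding factor at the top of blood formation, had 0.928, 0 and 0.397 CPM in C. hamatus and 733, 355 and 183 CPM in G. acuticeps (log2 fold change -9.72, SE 0.98, adjusted p = 0.00029). TAL1 came to -10.73 with C. hamatus replicate 1 left out and -9.11 with G. acuticeps replicate 1 left out. The heme-regulated eIF2-alpha kinase E2AK1 (HRI), which ties globin translation to heme, had 0.928, 0 and 4.36 CPM against 459, 412 and 259 CPM (log2 fold change -7.62, adjusted p = 0.000814). E2AK1 came to -9.4 with C. hamatus replicate 3 left out. RBTN2 (LMO2), the adapter of the TAL1 complex, had 37.4, 18.4 and 14.3 CPM against 383, 386 and 575 CPM (log2 fold change -4.26, SE 0.53, adjusted p = 0.000565). RBTN2 came to -4.89 with C. hamatus replicate 1 left out. For all 3 genes the species did not overlap.

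GFI1B, a repressor of erythroid and megakaryocytic cells, had 13.7, 1.74 and 0.397 CPM in C. hamatus and 148, 126 and 88.7 CPM in G. acuticeps (log2 fold change -4.5, SE 1.05, adjusted p = 0.00874). GFI1B came to -7.04 with C. hamatus replicate 1 left out. KLF1, an activator of globin genes, was low in both species but lower in C. hamatus, with 0.696, 0.348 and 1.19 CPM against 13.4, 7.87 and 10.1 CPM (log2 fold change -3.71, SE 0.67, adjusted p = 0.00253). GATA2, a factor of early progenitors, had 109, 47.7 and 33.3 CPM against 923, 649 and 618 CPM (log2 fold change -3.52, SE 0.57, adjusted p = 0.00158). GATA2 came to -4.28 with C. hamatus replicate 1 left out. MYB, a factor of dividing progenitors, had 104, 15.3 and 10.3 CPM against 561, 380.1 and 138 CPM (log2 fold change -3.05, SE 0.96, adjusted p = 0.0303). MYB came to -4.92 with C. hamatus replicate 1 left out. MYB no longer passed with C. hamatus replicate 2 or G. acuticeps replicate 1 or 2 left out (log2 fold changes -3.1 to -2.61, adjusted p = 0.0656 to 0.0918). Both GATA2 and MYB were highest within C. hamatus in replicate 1, the library with the lowest chromaffin and interrenal sums of that species. A link to those sums was not tested. GATA1 had at most 1.3 CPM in any library and was not tested, and the erythropoietin receptor EPOR was not called, with 1.62, 7.3 and 3.97 CPM against 2.44, 2.46 and 5.12 CPM.

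The 2 higher regulators were IKZF1 (Ikaros), a lymphoid factor, and BACH1, a heme-sensitive repressor. IKZF1 had 45, 74.4 and 19.8 CPM in C. hamatus and 1 count in all of G. acuticeps, a ratio of 719 (95% interval 128 to 28447). The IKZF1 ratio came to 305 with G. acuticeps replicate 3 left out. BACH1 had 18.8, 18.8 and 52 CPM in C. hamatus and 0.305, 0 and 0.502 CPM in G. acuticeps (log2 fold change 6.47, adjusted p = 0.000858). The list's median log2 fold change was -1.03 after summing and -0.75 over its rows. The summed median was -0.45 with G. acuticeps replicate 3 left out and -0.29 over members with at least 5 counts in every library. BACH1 came to 5.78 with C. hamatus replicate 3 left out and 7.36 with G. acuticeps replicate 3 left out.

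**Figure D2:**
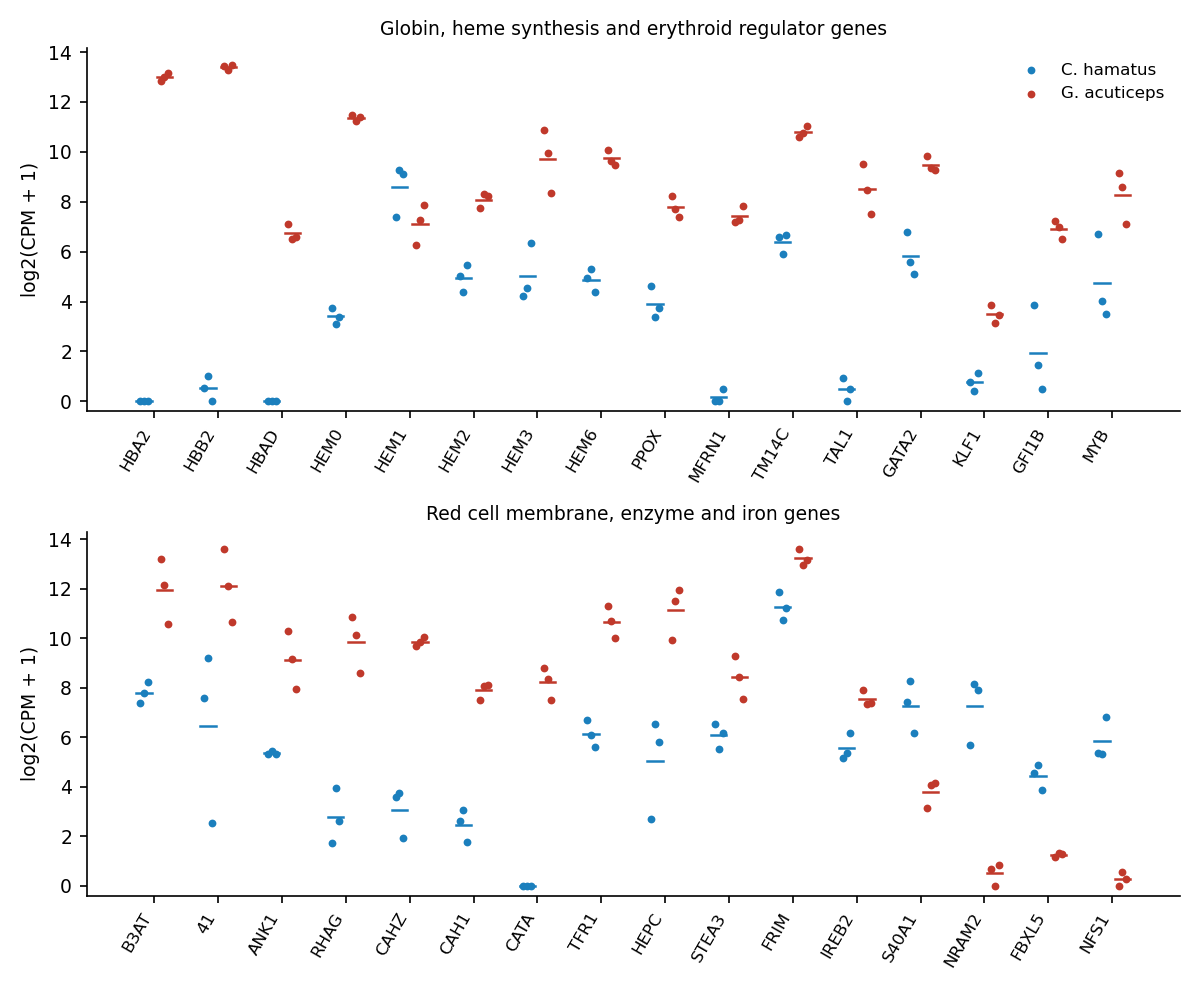
Each dot is 1 library and each bar the mean of 3, as log2(CPM + 1) on the y axis, for genes named on the x axis, C. hamatus in blue and G. acuticeps in red. The globin dots of G. acuticeps lie on top of each other, while those of B3AT and 41 are spread out, and the iron genes S40A1, NRAM2, FBXL5 and NFS1 stand higher in C. hamatus.

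Of 23 red cell membrane and enzyme mnemonics, 17 were tested, 9 (52.9%, against 18.4% of all) lower and 2 (11.8%, against 27.1%) higher. Red cell membrane and enzyme members called higher numbered 1 with C. hamatus replicate 1 or 2 or G. acuticeps replicate 1, 2 or 3 left out. The Rh-associated ammonium channel RHAG had 2.32, 14.3 and 5.16 CPM in C. hamatus and 1853, 1134 and 387 CPM in G. acuticeps (log2 fold change -7.3, SE 0.99, adjusted p = 0.000771). RHAG came to -8.22 with C. hamatus replicate 2 left out. Band 3 (B3AT), the chloride/bicarbonate exchanger, had 164, 221 and 299 CPM against 9329, 4555 and 1520.0 CPM (log2 fold change -4.49, adjusted p = 0.00222). B3AT came to -3.78 with G. acuticeps replicate 1 left out. Ankyrin-1 (ANK1), which ties band 3 to spectrin, had 38.7, 42.4 and 39.3 CPM against 1270.4, 567 and 249.6 CPM (log2 fold change -4.11, adjusted p = 0.00147). ANK1 came to -3.39 with G. acuticeps replicate 1 left out. For these 3 genes every G. acuticeps library lay above every C. hamatus library, although the G. acuticeps libraries differed several-fold among themselves where HBA2 and HBB2 did not.

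Protein 4.1 (mnemonic 41), the skeleton protein that binds spectrin to actin, varied in both species, with 191, 589.6 and 4.76 CPM in C. hamatus and 12493, 4379 and 1607 CPM in G. acuticeps (log2 fold change -4.56, SE 1.5, adjusted p = 0.0366). 41 came to -5.98 with C. hamatus replicate 2 left out. 41 no longer passed with C. hamatus replicate 1 or G. acuticeps replicate 1, 2 or 3 left out (log2 fold changes -5.11 to -3.57, adjusted p = 0.0525 to 0.103). The carbonic anhydrases were steadier. CAHZ, a carbonic anhydrase of fish red cells, had 10.9, 12.5 and 2.78 CPM against 826, 934 and 1048 CPM (log2 fold change -6.75, SE 0.71, adjusted p = 0.000313), and CAH1, counted on a row that is itself a C. hamatus protein entry, had 5.1, 7.3 and 2.38 CPM against 179, 271 and 278 CPM (log2 fold change -5.64, SE 0.56, adjusted p = 0.000274). Catalase (CATA), which removes hydrogen peroxide and is abundant in red cells, was at 0 in all C. hamatus libraries and at 439, 328 and 182 CPM in G. acuticeps, at least 407-fold lower (adjusted p = 0.00027), on a single zebrafish row. Of the pyruvate kinase names, KPYK was lower (1.39, 3.13 and 2.38 CPM against 17.7, 9.59 and 129 CPM, log2 fold change -4.52, SE 1.06, adjusted p = 0.00895), and KPYM, another name of a pyruvate kinase, was higher (16.5, 109.6 and 646 CPM against 1.53, 1.23 and 2.21 CPM). KPYK came to -5.14 with G. acuticeps replicate 2 left out and -2.67 with G. acuticeps replicate 3 left out. KPYM came to 5.16 with C. hamatus replicate 3 left out. Together the 2 names came to 17.9, 113 and 649 CPM in C. hamatus and 19.2, 10.8 and 131 CPM in G. acuticeps, which overlap. The 2 higher members were RHBG, a relative of RHAG found outside red cells, with a ratio of 743 (95% interval 133 to 29397), and gamma-adducin (ADDG), with 972, 599 and 90.4 CPM against 116, 134 and 102 CPM (log2 fold change 2.24, adjusted p = 0.0395). C. hamatus replicate 3 lay below all of G. acuticeps for ADDG. ADDG no longer passed with C. hamatus replicate 1 or 2 or G. acuticeps replicate 1, 2 or 3 left out (log2 fold changes 1.44 to 2.24, adjusted p = 0.0807 to 0.143).

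Iron genes moved both ways, with 6 (35.3%, against 27.1% of all) higher and 7 (41.2%, against 18.4%) lower of the 17 tested among 22. The 7 lower members have roles in uptake, storage, regulation and iron-sulfur assembly. The transferrin receptor TFR1, which brings in iron bound to transferrin, had 102, 67.8 and 48 CPM in C. hamatus and 2512, 1658 and 1028 CPM in G. acuticeps (log2 fold change -4.57, SE 0.59, adjusted p = 0.000652). The endosomal ferrireductase STEA3, which works with it in erythroid cells, had 91.4, 44.5 and 72.2 CPM against 618, 349 and 185 CPM (log2 fold change -2.47, adjusted p = 0.0068). Hepcidin (HEPC), the peptide hormone that removes the exporter ferroportin from the cell surface, had 5.57, 92.9 and 55.5 CPM against 968, 2931 and 3929 CPM (log2 fold change -5.67, SE 1.1, adjusted p = 0.00362). HEPC came to -6.41 with C. hamatus replicate 2 left out. Ferritin of the middle type (FRIM), an iron store, had 3742, 1708 and 2399 CPM against 12382, 7949 and 9221 CPM (log2 fold change -1.91, adjusted p = 0.0241). FRIM no longer passed with C. hamatus replicate 2 or 3 or G. acuticeps replicate 1, 2 or 3 left out (log2 fold changes -2.15 to -1.68, adjusted p = 0.0507 to 0.0751). The iron-responsive RNA-binding protein IREB2, the ferritin receptor of autophagy NCOA4 and the glutaredoxin GLRX5 of iron-sulfur assembly were also lower (log2 fold changes -1.95, -1.85 and -2.53). NCOA4 no longer passed with G. acuticeps replicate 2 left out (-1.98, adjusted p = 0.0516) or G. acuticeps replicate 3 left out (-1.64, adjusted p = 0.0641).

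The 6 higher members also have mixed roles, among them export and uptake. Ferroportin (S40A1), the only known iron exporter of vertebrate cells, had 172, 307 and 70.2 CPM in C. hamatus and 7.94, 16 and 16.8 CPM in G. acuticeps (log2 fold change 3.74, adjusted p = 0.00188). S40A1 came to 3.15 with C. hamatus replicate 2 left out. The divalent metal transporter NRAM2 (DMT1), which takes up iron, had 51.3, 281 and 241 CPM against 0.611, 0 and 0.803 CPM (log2 fold change 8.44, adjusted p = 0.000517). NRAM2 came to 9.15 with G. acuticeps replicate 3 left out. FBXL5, the iron-sensing subunit that marks iron regulatory proteins for degradation, had 22.7, 28.5 and 13.5 CPM against 1.22, 1.48 and 1.41 CPM (log2 fold change 3.95, SE 0.57, adjusted p = 0.000958). The cysteine desulfurase NFS1 of iron-sulfur assembly had 40.4, 39.3 and 112 CPM against 0, 0.492 and 0.201 CPM (log2 fold change 7.95, adjusted p = 0.000372). NFS1 came to 7.26 with C. hamatus replicate 3 left out. The ferrireductase STEA4 had 65, 151 and 541 CPM against 19.5, 17.5 and 13.9 CPM (log2 fold change 3.9, SE 0.78, adjusted p = 0.00422). STEA4 came to 2.66 with C. hamatus replicate 3 left out. PGRC1, a heme-binding membrane protein that also serves steroid-making enzymes, was called higher (log2 fold change 4.18, SE 1.44, adjusted p = 0.0438), but its level was 55.2, 120.3 and 3162 CPM in C. hamatus and 95.6, 36.7 and 52 CPM in G. acuticeps. Only replicate 3, the library with the interrenal markers, stood clearly apart. PGRC1 no longer passed with C. hamatus replicate 3 or G. acuticeps replicate 1, 2 or 3 left out (log2 fold changes 0.51 to 4.61, adjusted p = 0.0983 to 0.448). With C. hamatus replicate 1 alone, PGRC1 came to -0.16 and did not pass (adjusted p = 0.840).

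**Figure D3:**
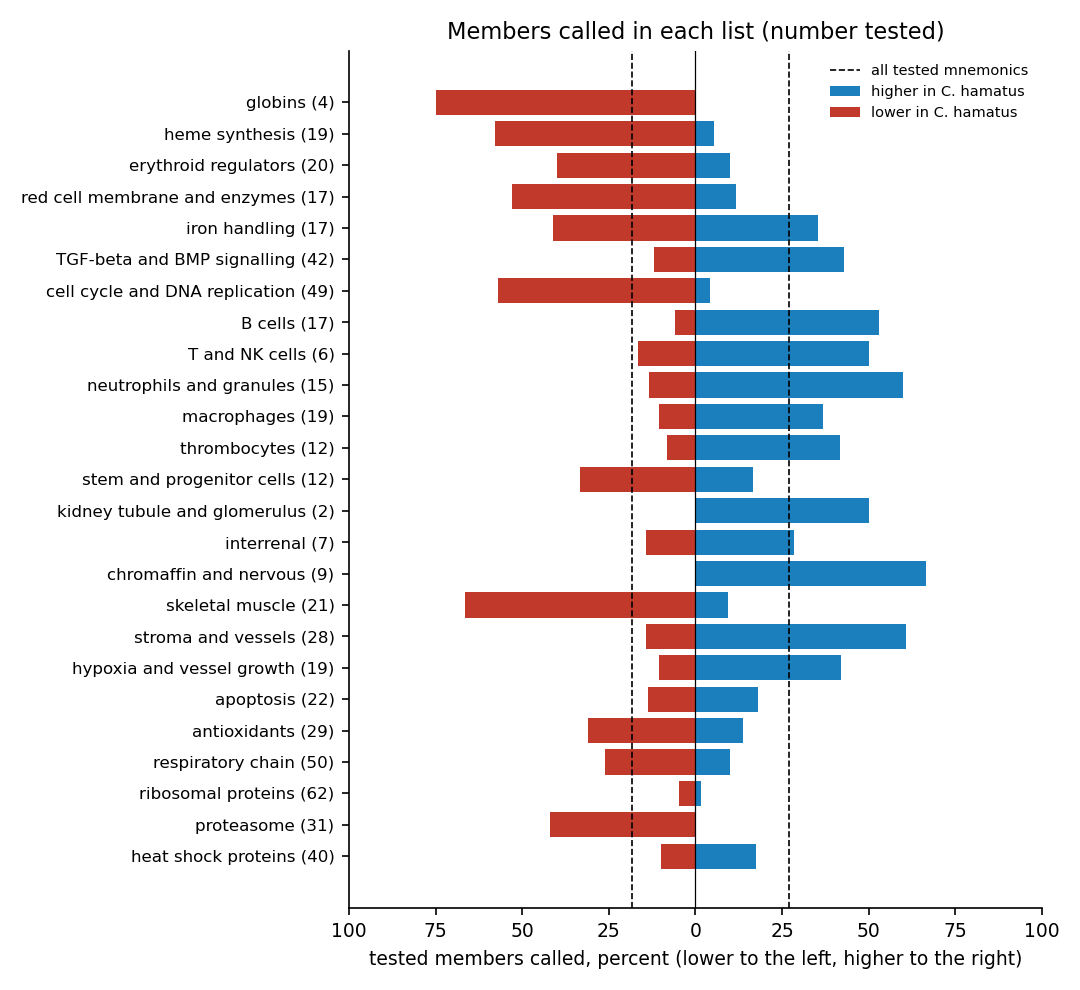
For each list on the y axis, with the number of tested mnemonics in brackets, bars give the percent of them called lower in C. hamatus (red, to the left) and higher (blue, to the right), and dashed lines mark the shares among all tested mnemonics, 18.4 and 27.1%. The globin, heme synthesis, red cell, cell cycle and muscle bars reach furthest left, and the chromaffin, stroma, neutrophil and B cell bars furthest right.

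Of 67 TGF-beta and BMP mnemonics, 42 were tested, 18 (42.9%, against 27.1% of all mnemonics) were higher and 5 (11.9%, against 18.4%) were lower, with a median log2 fold change of 1.12. TGF-beta and BMP signalling members called lower numbered 2 to 3 with C. hamatus replicate 3 or G. acuticeps replicate 1, 2 or 3 left out. Without G. acuticeps replicate 2 or 3, 13 of 47 tested were higher, beside 1513 of 8063 and 1639 of 8061 mnemonics in those fits. With at least 5 counts in every library, 9 of 31 were higher, beside 1058 of 5498 mnemonics, and the list median was 0.53. It was 0.68 with C. hamatus replicate 1 alone. The remaining 25 did not pass the filter on low counts, among them the receptor TGFR1, at no more than 0.492 CPM, and GREM1 and CHRD, both BMP antagonists. Higher ligands included BMP7, with 196, 124 and 54.7 CPM in C. hamatus and 0 in every G. acuticeps library, at least 192-fold higher (adjusted p = 0.000423). BMP8B had 15.8, 27.1 and 12.3 CPM against 2.75, 0.246 and 0.602 CPM (log2 fold change 4.02, SE 0.88, adjusted p = 0.00628). BMP8B came to 5.21 with G. acuticeps replicate 1 left out and 3.42 with G. acuticeps replicate 2 left out. BMP2 had 10.7, 8 and 2.78 CPM in C. hamatus and a ratio of 39.1 (95% interval 12.9 to 194). TGFB1, the ligand that can hold blood progenitors quiescent, had 137, 158 and 57.5 CPM against 43.1, 52.9 and 47.5 CPM (log2 fold change 1.3, adjusted p = 0.0432). TGFB1 no longer passed with C. hamatus replicate 1 or 2 or G. acuticeps replicate 1, 2 or 3 left out (log2 fold changes 1.02 to 1.26, adjusted p = 0.113 to 0.153). Its C. hamatus values lay above all of G. acuticeps, with replicate 3 only slightly so. TGFB3 had 5.57, 5.57 and 125 CPM against 4.28, 0.492 and 1.41 CPM (log2 fold change 4.51, SE 1.42, adjusted p = 0.0309). TGFB3 no longer passed with C. hamatus replicate 3 or G. acuticeps replicate 1, 2 or 3 left out (log2 fold changes 1.48 to 5.41, adjusted p = 0.0545 to 0.172).

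Among receptors and carriers, the BMP receptor BMR1B had 19, 109.9 and 44.4 CPM in C. hamatus and 2.14, 1.97 and 2.11 CPM in G. acuticeps (log2 fold change 4.78, SE 0.74, adjusted p = 0.00128). BMR1B came to 3.92 with C. hamatus replicate 2 left out. The type II receptors TGFR2 and BMPR2 were not called (log2 fold changes -0.23 and 1.48, adjusted p = 0.734 and 0.0902). LTBP3, which stores latent TGF-beta in the matrix, had 10.4, 13.9 and 24.2 CPM in C. hamatus and 1 count in all of G. acuticeps, a ratio of 293 (95% interval 52 to 11624). The LTBP3 ratio came to 124 with G. acuticeps replicate 3 left out. Decorin (PGS2), a matrix proteoglycan that binds TGF-beta, had 1766, 1267 and 1132 CPM against 529, 422 and 374 CPM (log2 fold change 1.65, adjusted p = 0.0143). PGS2 no longer passed with G. acuticeps replicate 2 left out (1.51, adjusted p = 0.116) or G. acuticeps replicate 3 left out (1.45, adjusted p = 0.0847).

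The SMAD proteins, which carry the signal to the nucleus, were split by row. SMAD2 was higher (148, 68.5 and 91.6 CPM against 2.14, 0 and 2.51 CPM, log2 fold change 5.97, adjusted p = 0.00131), and SMAD3, its close relative in the TGF-beta branch, was lower (6.96, 9.74 and 5.95 CPM against 84.9, 49.2 and 37.7 CPM, log2 fold change -2.93, adjusted p = 0.00188). SMAD2 came to 5.33 with G. acuticeps replicate 2 left out. SMAD2 and SMAD3 are alike in sequence, so reads of one could have been counted on the row of the other. The shared partner SMAD4 was higher (57.1, 54.6 and 189 CPM against 37.3, 25.1 and 10.3 CPM, log2 fold change 2.06, adjusted p = 0.0347). SMAD4 no longer passed with C. hamatus replicate 3 or G. acuticeps replicate 1, 2 or 3 left out (log2 fold changes 1.21 to 2.46, adjusted p = 0.0503 to 0.125). Of the BMP branch, SMAD9 had 20.2, 6.26 and 20.2 CPM in C. hamatus and 1 count in G. acuticeps, a ratio of 293 (95% interval 52 to 11624), while SMAD5 was not called (log2 fold change -0.53, adjusted p = 0.438). SMAD1 was at 0 in G. acuticeps and at 10.4, 1.39 and 15.5 CPM in C. hamatus, and was not tested.

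Several inhibitors and targets of the pathway were higher. The inhibitory SMAD7, itself a target of the pathway, had 19.5, 13.2 and 18.6 CPM in C. hamatus and 2.75, 2.95 and 3.41 CPM in G. acuticeps (log2 fold change 2.48, adjusted p = 0.00432). SMAD6 had a log2 fold change of 3.08 (adjusted p = 0.0181). SMAD6 came to 1.83 with C. hamatus replicate 3 left out. SMAD6 no longer passed with G. acuticeps replicate 1, 2 or 3 left out (log2 fold changes 2.78 to 3.29, adjusted p = 0.0549 to 0.0944). The nuclear repressor SKI was at 0 in G. acuticeps and at 11.1, 5.22 and 19.4 CPM in C. hamatus, at least 18.3-fold higher (adjusted p = 0.0018). The target PAI1, a plasminogen activator inhibitor, had 3.94, 126 and 175 CPM against 8.55, 7.13 and 5.32 CPM (log2 fold change 3.87, SE 1.09, adjusted p = 0.02), and C. hamatus replicate 1 lay below every G. acuticeps library. PAI1 came to 3.21 with C. hamatus replicate 3 left out. PAI1 no longer passed with G. acuticeps replicate 1, 2 or 3 left out (log2 fold changes 3.58 to 3.98, adjusted p = 0.0663 to 0.0912). With C. hamatus replicate 1 alone, PAI1 came to -0.82 and did not pass (adjusted p = 0.348). Of the inhibitor-of-differentiation targets of BMP signals, ID2 was higher (23.2, 30.6 and 44.4 CPM against 1.53, 3.69 and 5.62 CPM, log2 fold change 3.13, adjusted p = 0.00335), ID3A was lower (26.7, 13.6 and 12.7 CPM against 288, 245 and 113 CPM, log2 fold change -3.61, SE 0.54, adjusted p = 0.00112), and ID1 and ID4 were not called (log2 fold changes 1.07 and 0.35, adjusted p = 0.0874 and 0.587). The other lower members were KCP, a modulator of BMP ligands, the coactivator EP300 and the cell cycle repressor E2F4 (log2 fold changes -3.53, -1.45 and -1.37). KCP no longer passed with G. acuticeps replicate 1 left out (-3.25, adjusted p = 0.0549). EP300 no longer passed with C. hamatus replicate 1 or 3 or G. acuticeps replicate 1, 2 or 3 left out (log2 fold changes -1.61 to -1.22, adjusted p = 0.0704 to 0.119). E2F4 came to -2.07 with C. hamatus replicate 1 left out. E2F4 no longer passed with C. hamatus replicate 2 or 3 or G. acuticeps replicate 1, 2 or 3 left out (log2 fold changes -1.61 to -1.09, adjusted p = 0.0677 to 0.127). With C. hamatus replicate 1 alone, the median log2 fold change of the TGF-beta and BMP list was 0.68, beside 1.12 in the full fit.

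**Figure D4:**
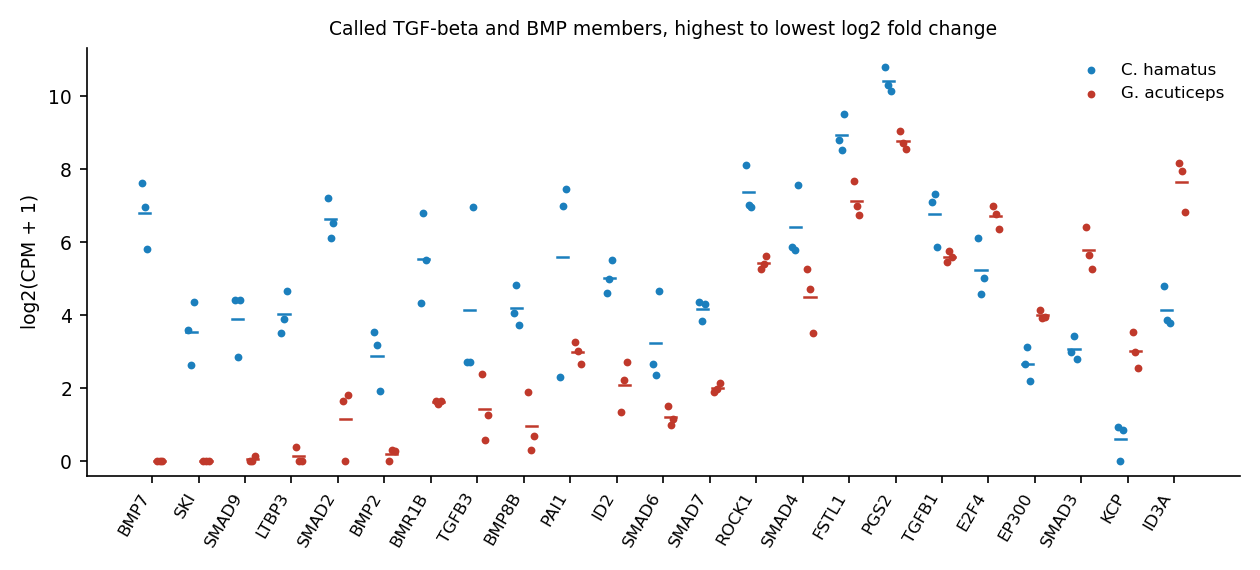
The 23 called TGF-beta and BMP mnemonics are ordered on the x axis by log2 fold change, with log2(CPM + 1) on the y axis, 1 dot per library and a bar for each species mean. The C. hamatus dots lie above the G. acuticeps dots from BMP7 to TGFB1 except for PAI1, where the species overlap, and below them for the last 5 genes.

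Of 58 cell cycle and DNA replication mnemonics, 49 were tested. Of these, 28 (57.1%, against 18.4% of all) were lower and 2 (4.08%, against 27.1%) higher, with a median log2 fold change of -2.25. The median was -3.06 with C. hamatus replicate 1 left out. Cell cycle and DNA replication members called higher numbered 1 with C. hamatus replicate 1 or G. acuticeps replicate 1, 2 or 3 left out. Cell cycle and DNA replication members called lower numbered 17 with G. acuticeps replicate 2 or 3 left out. Cyclin E1 (CCNE1), which starts DNA replication, had 0, 0 and 0.793 CPM against 11.6, 15.5 and 18.4 CPM (log2 fold change -5.52, SE 1.02, adjusted p = 0.0028). CCNE1 came to -9.22 with C. hamatus replicate 3 left out, the other C. hamatus libraries being at 0. The centromere protein CENPN had 0.464, 1.74 and 0 CPM against 12.2, 24.6 and 25 CPM (log2 fold change -4.94). CENPN came to -6.42 with C. hamatus replicate 2 left out and -4.3 with C. hamatus replicate 3 left out. The cytokinesis motor KIF23 had 0, 0 and 7.54 CPM against 76.7, 77 and 81.1 CPM (log2 fold change -4.86). KIF23 came to -11.59 with C. hamatus replicate 3 left out, the other C. hamatus libraries being at 0. For all 3 genes the species did not overlap. The 2 higher members were the early G1 regulators cyclin D1 (CCND1, log2 fold change 3.36, adjusted p = 0.00494) and CDK6 (log2 fold change 1.66, adjusted p = 0.0352). CDK6 no longer passed with C. hamatus replicate 1 or G. acuticeps replicate 1, 2 or 3 left out (log2 fold changes 0.91 to 1.69, adjusted p = 0.0999 to 0.158).

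Immunoglobulin light chain rows were the highest of C. hamatus. Of 28 B cell mnemonics, 17 were tested, 9 (52.9%, against 27.1% of all) were higher and 1 (5.88%, against 18.4%) lower. B cell members called higher numbered 4 to 5 with G. acuticeps replicate 1 or 2 left out. The summed B cell list ran to 162542, 70318 and 32006 CPM in C. hamatus and 14681, 21856 and 29143 CPM in G. acuticeps, so the species did not overlap but replicate 3 was only slightly above G. acuticeps. IGKC, a light chain constant region, had 46679, 19824 and 12935 CPM against 4.28, 16.5 and 149 CPM (log2 fold change 8.87, SE 1.63, adjusted p = 0.00276). IGKC came to 8.04 with C. hamatus replicate 1 left out and 11.22 with G. acuticeps replicate 3 left out. KACB, another light chain constant row, had 71585, 19438 and 10125 CPM against 2603, 3755 and 6474 CPM (log2 fold change 2.98, adjusted p = 0.0276). KACB no longer passed with C. hamatus replicate 1 or G. acuticeps replicate 1, 2 or 3 left out (log2 fold changes 1.67 to 3.32, adjusted p = 0.0555 to 0.139). The variable region KV401 was not called, with 26528, 19184 and 4165 CPM against 9771, 15537 and 19591 CPM. Light chain rows of 1 kind, variable or constant, resemble each other, so reads can move between them. LV302 and HV05, variable region rows, had log2 fold changes of 7.06 and 7.28. HV05 came to 5.9 with C. hamatus replicate 2 left out. The heavy chain IGHM and the plasma cell factor XBP1 were not called (log2 fold changes 1.07 and 0.50, adjusted p = 0.0596 and 0.437). Among genes that are not immunoglobulins, the factors COE1 (EBF1) and IRF4 and the kinases LYN and BLK were higher (log2 fold changes 1.87, 4.82, 1.79 and 3.03). COE1 no longer passed with C. hamatus replicate 1 or 2 or G. acuticeps replicate 1, 2 or 3 left out (log2 fold changes 1.34 to 2.06, adjusted p = 0.0689 to 0.141). LYN no longer passed with G. acuticeps replicate 1, 2 or 3 left out (log2 fold changes 1.64 to 1.85, adjusted p = 0.0609 to 0.0695). BLK came to 3.79 with G. acuticeps replicate 3 left out. BLK no longer passed with G. acuticeps replicate 1 left out (2.92, adjusted p = 0.0576) or G. acuticeps replicate 2 left out (2.58, adjusted p = 0.0818). The kinase SYK of B cell receptor signalling was lower, with 152, 71 and 134 CPM against 1373, 1242 and 1482 CPM (log2 fold change -3.52, SE 0.49, adjusted p = 0.000831).

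Of 17 neutrophil mnemonics, 15 were tested, 9 were higher and 2 lower. The neutrophil share of higher members was above the 27.1% of all mnemonics, and that of lower members under the 18.4% of all. Of 21 macrophage mnemonics, 19 were tested, 7 (36.8%, against 27.1% of all mnemonics) were higher and 2 lower. Neutrophil members called lower numbered 1 with C. hamatus replicate 2 or G. acuticeps replicate 1 or 2 left out. Macrophage members called higher numbered 3 to 4 with G. acuticeps replicate 1, 2 or 3 left out. Macrophage members called lower numbered 1 with G. acuticeps replicate 1 or 2 left out. The macrophage median log2 fold change was 0.53 in the full fit and -0.0032 with C. hamatus replicate 1 alone. The granulocyte factor CEBPE had 51.5, 128 and 40.9 CPM in C. hamatus and none in G. acuticeps, at least 113-fold higher. The CEBPE bound came to 70.8 with C. hamatus replicate 2 left out. Goose-type lysozyme (LYG) and CEBPA were at 0 in G. acuticeps too, at least 16-fold and 8.8-fold higher. The CEBPA bound came to 4.93 with C. hamatus replicate 2 left out. The gelatinase MMP9 went the other way, with 0 in C. hamatus and 10.1, 17.2 and 15.8 CPM in G. acuticeps, at least 18.4-fold lower. NCF4, a subunit of the phagocyte oxidase, was lower (log2 fold change -2.01). NCF4 came to -2.65 with C. hamatus replicate 1 left out. NCF4 no longer passed with C. hamatus replicate 2 or G. acuticeps replicate 1 or 2 left out (log2 fold changes -2.19 to -1.7, adjusted p = 0.0647 to 0.0961). Among macrophage genes, the mannose receptor MRC1 had 505, 358 and 228 CPM against 3.05, 6.89 and 16.1 CPM (log2 fold change 5.36, SE 0.72, adjusted p = 0.000732). MRC1 came to 6.08 with G. acuticeps replicate 3 left out. The growth factor receptor CSF11 had a ratio of 55.2 (95% interval 18.4 to 271), and the pore-forming MPEG1 had 12.5, 409 and 111 CPM against 10.7, 10.8 and 15.4 CPM (log2 fold change 3.84). The CSF11 ratio came to 35.8 with C. hamatus replicate 2 left out. MPEG1 no longer passed with C. hamatus replicate 2 or G. acuticeps replicate 1, 2 or 3 left out (log2 fold changes 2.32 to 3.93, adjusted p = 0.0599 to 0.0717). The toll-like receptors TLR22 and TLR13 were lower (log2 fold changes -5.22 and -2.58). TLR22 came to -6.2 with C. hamatus replicate 3 left out. TLR13 no longer passed with G. acuticeps replicate 1 left out (-2.45, adjusted p = 0.0572) or G. acuticeps replicate 2 left out (-2.64, adjusted p = 0.0698). The lysosomal protein CD68 of macrophages was not called, with 1183, 1447 and 1895 CPM against 1162, 1202 and 1130.1 CPM.

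T and NK cell genes had few reads, and 6 of 14 were tested, 3 higher and 1 lower. The share of higher members was above the 27.1% of all mnemonics, and that of lower members (16.7%) was near the 18.4% of all. T and NK cell members called lower numbered 2 to 3 with C. hamatus replicate 1 or 3 left out and 0 with G. acuticeps replicate 2 or 3 left out. Their median log2 fold change was 1.59 in the full fit and -0.50 with C. hamatus replicate 1 alone. The T and NK median was -1.22, -1.02 and -0.55 with C. hamatus replicate 1, 2 or 3 left out. It was 1.64, 1.64 and 1.26 with G. acuticeps replicate 1, 2 or 3 left out. Over the 3 members with at least 5 counts in every library it was -0.78, so its sign is not settled. LCK, the kinase of T cell receptor signalling, had 484, 326 and 268 CPM against 0, 0.984 and 0.201 CPM (log2 fold change 9.82, SE 0.89, adjusted p = 0.000262). LCK came to 10.98 with G. acuticeps replicate 2 left out. CD4 was at 0 in G. acuticeps, at least 8.67-fold higher, the cytokine receptor chain IL2RB was higher (log2 fold change 4.04), and perforin (PERF) was lower (log2 fold change -3.53). IL2RB came to 3.46 with C. hamatus replicate 1 left out. PERF came to -7.75 with C. hamatus replicate 3 left out. PERF no longer passed with C. hamatus replicate 2 or G. acuticeps replicate 1, 2 or 3 left out (log2 fold changes -3.78 to -3.1, adjusted p = 0.0609 to 0.0965). Of 14 thrombocyte mnemonics, 12 were tested, 5 (41.7%, against 27.1% of all) higher and 1 (8.33%, against 18.4%) lower. Thrombocyte members called lower numbered 2 of 12 tested with C. hamatus replicate 1 left out. The thrombocyte median log2 fold change was 0.86 in the full fit and 0.93 with C. hamatus replicate 1 alone. The platelet glycoprotein GPV was at 0 in G. acuticeps and at 15.1, 765 and 87.3 CPM in C. hamatus, at least 444-fold higher. The GPV bound came to 78.5 with C. hamatus replicate 2 left out. The thromboxane receptor TA2R and the ADP receptor P2Y12 were higher (log2 fold changes 6.91 and 5.63), and von Willebrand factor (VWF), also an endothelial gene, was lower (0, 2.43 and 0.793 CPM against 84.6, 47 and 66.8 CPM). TA2R came to 7.65 with G. acuticeps replicate 1 left out and 6.31 with G. acuticeps replicate 2 left out. P2Y12 came to 5.01 with C. hamatus replicate 3 left out. VWF came to -7.23 with C. hamatus replicate 2 left out. Stem and progenitor genes gave 2 (16.7%, against 27.1% of all) higher and 4 (33.3%, against 18.4%) lower of 12 tested. Stem and progenitor members called higher numbered 5 of 12 tested with C. hamatus replicate 3 left out and 1 of 12 tested with G. acuticeps replicate 2 left out. Their median log2 fold change was 0.13 in the full fit and 0.35 with C. hamatus replicate 1 alone. All 4 lower ones (TAL1, GATA2, RBTN2 and MYB) are also in the erythroid list, and the higher ones were EVI1, at 0 in G. acuticeps and at least 10.2-fold higher, and MEIS1 (log2 fold change 1.79, adjusted p = 0.00997). MEIS1 no longer passed with G. acuticeps replicate 2 left out (1.7, adjusted p = 0.0653).

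Connective tissue and vessel genes gave 17 (60.7%, against 27.1% of all) higher and 4 (14.3%, against 18.4%) lower of 28 tested among 34. Connective tissue and vessel members called higher numbered 9 with G. acuticeps replicate 2 or 3 left out. Collagen VI alpha-1 (CO6A1) had 906, 579 and 632 CPM against 9.47, 14.3 and 21.2 CPM (log2 fold change 5.55, SE 0.53, adjusted p = 0.00027), and the partner chain alpha-3 (CO6A3) had 0, 0 and 1.19 CPM against 209.5, 135 and 130.4 CPM (log2 fold change -8.34, SE 0.98, adjusted p = 0.000458). CO6A3 came to -12.6 with C. hamatus replicate 3 left out, the other C. hamatus libraries being at 0. The 2 chains are built into 1 protein, and their rows went in opposite directions. The laminin chain LAMB4 was at 0 in G. acuticeps, at least 73.4-fold higher. The endothelial cadherin CADH5 had a ratio of 53.1 (95% interval 14.2 to 446). The CADH5 ratio came to 32.4 with C. hamatus replicate 2 left out and 81.2 with G. acuticeps replicate 2 left out. Genes of hypoxia and vessel growth gave 8 (42.1%, against 27.1% of all) higher and 2 (10.5%, against 18.4%) lower of 19 tested. Hypoxia and vessel growth members called higher numbered 4 to 5 with G. acuticeps replicate 2 or 3 left out. VEGFA, the main growth factor of vessels, had 10.4, 352 and 49.2 CPM against 2.75, 0.246 and 0.602 CPM (log2 fold change 6.96, SE 1.5, adjusted p = 0.00583). VEGFA came to 4.75 with C. hamatus replicate 2 left out, 8.07 with G. acuticeps replicate 1 left out and 6.35 with G. acuticeps replicate 2 left out. A second VEGFA mnemonic of zebrafish, VGFAA, was also higher, and both together came to 15.3, 359 and 62.7 CPM and 3.05, 0.738 and 0.803 CPM. BNIP3, a mitophagy gene induced in low oxygen, was at 0 in G. acuticeps and at 61.2, 45.2 and 64.7 CPM in C. hamatus, at least 87.5-fold higher. HIF1N, which hydroxylates the hypoxia factor, was higher (log2 fold change 5.66, adjusted p = 0.000911), and neuronal nitric oxide synthase (NOS1) was lower (log2 fold change -4.74, adjusted p = 0.00779). NOS1 came to -8.96 with C. hamatus replicate 3 left out. The hypoxia factor HIF1A itself was not called (log2 fold change 0.59, adjusted p = 0.301).

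Adrenal genes differed widely among the C. hamatus libraries. Of 9 chromaffin and nervous mnemonics tested, 6 (66.7%, against 27.1% of all) were higher and none lower. Chromaffin and nervous members called higher numbered 11 of 13 tested with C. hamatus replicate 1 left out and 2 to 3 with G. acuticeps replicate 1, 2 or 3 left out. Their median log2 fold change was 5.41 in the full fit and -0.49 with C. hamatus replicate 1 alone. PNMT, which makes adrenaline, had 0, 4077 and 604 CPM against 4.28, 0 and 2.61 CPM (log2 fold change 9.4, SE 2.74, adjusted p = 0.0224), and secretogranin-2 (SCG2), a granule protein, had 4.18, 368 and 165 CPM against 7.64, 0.246 and 2.01 CPM (log2 fold change 5.82). PNMT no longer passed with C. hamatus replicate 2 or G. acuticeps replicate 1, 2 or 3 left out (log2 fold changes 7.04 to 9.998, adjusted p = 0.0507 to 0.0961). With C. hamatus replicate 1 alone, where PNMT was at 0, the log2 fold change came to -6.64. SCG2 came to 4.74 with C. hamatus replicate 2 left out and 7.09 with G. acuticeps replicate 1 left out. SCG2 no longer passed with G. acuticeps replicate 2 left out (5.14, adjusted p = 0.0548) or G. acuticeps replicate 3 left out (5.41, adjusted p = 0.0832). The synaptic protein SN25A was at 0 in G. acuticeps and at 20.6, 29.2 and 109 CPM in C. hamatus, at least 81.3-fold higher. The SN25A bound came to 38.2 with C. hamatus replicate 3 left out. Of 7 interrenal mnemonics tested, 2 (28.6%) were higher and 1 (14.3%) lower, beside 27.1 and 18.4% of all mnemonics. The higher ones were NPC1 and 3BHS7 (log2 fold changes 5.93 and 1.74) and the lower one NR0B1 (log2 fold change -2.39). The interrenal median log2 fold change was 3.58 in the full fit and -1.60 with C. hamatus replicate 1 alone. Interrenal members called higher numbered 4 to 7 with C. hamatus replicate 1 or 2 left out and 1 with G. acuticeps replicate 2 or 3 left out. Interrenal members called lower numbered 2 of 7 tested with C. hamatus replicate 3 left out and 0 of 8 tested with G. acuticeps replicate 1 left out. Up to 9 interrenal mnemonics were tested in these fits. NPC1 came to 4.45 with C. hamatus replicate 2 left out and 6.59 with G. acuticeps replicate 3 left out. 3BHS7 no longer passed with G. acuticeps replicate 2 left out (1.6, adjusted p = 0.0767) or G. acuticeps replicate 3 left out (1.51, adjusted p = 0.0562). NR0B1 no longer passed with G. acuticeps replicate 1 left out (-1.86, adjusted p = 0.0591). The side-chain cleavage enzyme CP11A, the first step of steroid synthesis, had 13.9, 23.3 and 7536 CPM against 59.3, 50.4 and 67.9 CPM and was not called (adjusted p = 0.0673). With C. hamatus replicate 3 left out, CP11A was called lower (-1.68, adjusted p = 0.0112). Of 2 tubule mnemonics tested, the sodium pump AT1A1, found in most cells, was higher (log2 fold change 1.79). AT1A1 no longer passed with C. hamatus replicate 2 or G. acuticeps replicate 1, 2 or 3 left out (log2 fold changes 1.26 to 1.84, adjusted p = 0.0751 to 0.114). The tubule and glomerulus median log2 fold change was 1.71 in the full fit and 0.040 with C. hamatus replicate 1 alone. Tubule and glomerulus members called higher numbered 0 with C. hamatus replicate 2 or G. acuticeps replicate 1, 2 or 3 left out. Tubule and glomerulus members called lower numbered 1 with C. hamatus replicate 1, 2 or 3 or G. acuticeps replicate 3 left out.

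Of 21 skeletal muscle mnemonics tested, 14 (66.7%, against 18.4% of all) were lower and 2 (9.52%, against 27.1%) higher. Skeletal muscle members called higher numbered 4 of 27 tested with C. hamatus replicate 1 left out. ACTS had 127, 199 and 11.5 CPM against 18683, 30255 and 29569 CPM (log2 fold change -7.86, SE 1.23, adjusted p = 0.00135). ACTS came to -8.56 with C. hamatus replicate 2 left out. Actin rows are near copies, and the 4 actin mnemonics of skeletal, cardiac and non-muscle type came together to 500.2, 2012 and 215 CPM in C. hamatus and 19017, 31090.0 and 30342 CPM in G. acuticeps. With non-muscle actin included, this was 0.0417, 0.231 and 0.0252% of the C. hamatus counts and 2.04, 2.93 and 2.51% of the G. acuticeps counts. Whether actin reads of C. hamatus went uncounted was not tested. Titin had 1.62, 2.09 and 0 CPM against 466, 402 and 523 CPM, the myosin light chain MLE1 had 0, 1.39 and 0.397 CPM against 26.9, 80 and 747 CPM, and the myosin-binding MYPC2 was at 0 in C. hamatus, at least 27-fold lower. The MYPC2 bound came to 16.2 with G. acuticeps replicate 3 left out. TITIN came to -7.97 with C. hamatus replicate 3 left out. MLE1 came to -10.25 with C. hamatus replicate 2 left out and -6.67 with G. acuticeps replicate 3 left out. MLE1 was highest in G. acuticeps replicate 3 and titin nearly even across that species. Calsequestrin-1 (CASQ1) and LDB3, both muscle proteins, were higher in C. hamatus (log2 fold changes 7.65 and 3.82). CASQ1 came to 9.42 with G. acuticeps replicate 3 left out. LDB3 came to 4.78 with G. acuticeps replicate 3 left out.

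Few ribosomal protein genes were called. Of 62 ribosomal protein mnemonics tested, 3 were lower and 1 higher, both shares under those of all mnemonics. Without C. hamatus replicate 1, 17 were lower, and the summed list ran from 114669 to 367532 CPM within C. hamatus and from 185384 to 391799 CPM within G. acuticeps. RL5 was at 0 in C. hamatus and at 267, 543 and 643 CPM in G. acuticeps, yet RL5A, another entry for ribosomal protein L5, had 8892, 3430.3 and 2798 CPM against 4393, 6927 and 7607 CPM and was not called. RL37 had 0, 0 and 0.793 CPM against 2926, 5957 and 7521 CPM (log2 fold change -14.0, SE 1.3, adjusted p = 0.00027). RL37 came to -17.71 with C. hamatus replicate 3 left out, the other C. hamatus libraries being at 0. Whether RL37 reads of C. hamatus went uncounted or to a row of another name was not tested. RS10B was higher (log2 fold change 4.83) and RLA1 lower (log2 fold change -1.68). RS10B came to 3.12 with C. hamatus replicate 1 left out and 5.87 with G. acuticeps replicate 1 left out. RS10B no longer passed with G. acuticeps replicate 2 left out (4.35, adjusted p = 0.0527) or G. acuticeps replicate 3 left out (4.27, adjusted p = 0.0602). RLA1 came to -2.28 with C. hamatus replicate 1 left out. RLA1 no longer passed with C. hamatus replicate 2 or 3 or G. acuticeps replicate 1, 2 or 3 left out (log2 fold changes -1.87 to -1.45, adjusted p = 0.0688 to 0.133).

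Of 31 proteasome mnemonics tested, 13 (41.9%, against 18.4% of all) were lower and none higher. Proteasome members called lower numbered 3 to 6 with C. hamatus replicate 2 or G. acuticeps replicate 2 or 3 left out. The proteasome median log2 fold change was -0.98 in the full fit and -0.71 with C. hamatus replicate 1 alone. The core subunits PSA5 and PSA4 and the activator PSME1 were among the lower ones (log2 fold changes -2.21, -2.01 and -2.14). PSA5 came to -2.82 with C. hamatus replicate 1 left out. PSA4 came to -2.62 with C. hamatus replicate 1 left out. Respiratory chain mnemonics gave 13 lower and 5 higher of 50 tested. The share of lower members was above the 18.4% of all mnemonics, and that of higher members under the 27.1% of all. The respiratory chain median log2 fold change was -0.60 in the full fit and -0.69 with C. hamatus replicate 1 alone. Respiratory chain members called higher numbered 1 to 3 with C. hamatus replicate 2 or G. acuticeps replicate 1, 2 or 3 left out. Respiratory chain members called lower numbered 20 of 50 tested with C. hamatus replicate 3 left out and 6 with C. hamatus replicate 2 or G. acuticeps replicate 2 or 3 left out. The complex I subunits NDUV3 and NDUA9 were lower (log2 fold changes -2.77 and -2.24), COX7R was at 0 in C. hamatus (at least 134-fold lower), QCR6 was at 0 in G. acuticeps (at least 167-fold higher), and the cytochrome oxidase subunit COX42 and cytochrome c (CYC) were higher (log2 fold changes 1.82 and 1.58). NDUA9 came to -3.49 with C. hamatus replicate 3 left out. NDUA9 no longer passed with C. hamatus replicate 1 or 2 or G. acuticeps replicate 1, 2 or 3 left out (log2 fold changes -2.46 to -1.89, adjusted p = 0.054 to 0.0813). The QCR6 bound came to 111 with C. hamatus replicate 1 left out. COX42 no longer passed with G. acuticeps replicate 1 left out (1.77, adjusted p = 0.0525) or G. acuticeps replicate 2 left out (1.57, adjusted p = 0.0872). CYC no longer passed with C. hamatus replicate 2 or 3 or G. acuticeps replicate 1, 2 or 3 left out (log2 fold changes 1.25 to 1.59, adjusted p = 0.0641 to 0.136).

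Antioxidant mnemonics gave 9 (31.0%, against 18.4% of all) lower and 4 (13.8%, against 27.1%) higher of 29 tested. With at least 5 counts in every library, 3 of 22 were lower and 3 higher. Beside these, 755 of 5498 mnemonics were lower and 1058 higher in that fit, so the share of lower members was then near that of all. Besides catalase, the selenoproteins SELK and SELN were at 0 in C. hamatus, at least 192-fold and 57.2-fold lower. Selenoprotein P (SELPA), which carries selenium in plasma, had 2263, 3393 and 1761 CPM against 306, 248 and 232 CPM (log2 fold change 3.24, SE 0.49, adjusted p = 0.00123), and the methionine sulfoxide reductase MSRA and the glutathione transferase GSTK1 were higher, GSTK1 at least 11.1-fold over a G. acuticeps level of 0 and MSRA by 5.57 on the log2 scale. MSRA came to 4.39 with C. hamatus replicate 2 left out. The GSTK1 bound came to 5.96 with C. hamatus replicate 3 left out. Heat shock and folding mnemonics gave 7 higher and 4 lower of 40 tested, both shares under those of all mnemonics (27.1 and 18.4%). Heat shock and folding members called higher numbered 12 of 40 tested with C. hamatus replicate 3 left out and 4 with G. acuticeps replicate 2 or 3 left out. Heat shock and folding members called lower numbered 8 of 40 tested with C. hamatus replicate 3 left out and 2 of 40 tested with G. acuticeps replicate 3 left out. The mitochondrial chaperonin CH60 had 100.5, 35.8 and 1632 CPM against 3.67, 3.94 and 9.94 CPM (log2 fold change 6.62, SE 1.52, adjusted p = 0.008). CH60 came to 3.49 with C. hamatus replicate 3 left out. The glucocorticoid receptor co-chaperone FKBP5 had 90.9, 398 and 460.1 CPM against 5.19, 4.92 and 12.4 CPM (log2 fold change 5.36), BAG4 was at 0 in G. acuticeps (at least 25.5-fold higher), and the co-chaperones DNJB2, BAG5 and DNJB9 were lower (log2 fold changes -5.19, -3.67 and -2.38). BAG5 came to -4.74 with C. hamatus replicate 1 left out and -3.04 with C. hamatus replicate 3 left out. BAG5 no longer passed with G. acuticeps replicate 2 left out (-3.77, adjusted p = 0.0529) or G. acuticeps replicate 3 left out (-3.6, adjusted p = 0.0616). Of 22 apoptosis mnemonics tested, 4 (18.2%) were higher and 3 (13.6%) lower, both shares under those of all mnemonics (27.1 and 18.4%). Among them were the survival gene BCL2 (log2 fold change 2.24) and the caspase activator APAF (log2 fold change -2.17). The executioner caspase CASP6 was at 0 in C. hamatus (at least 8.29-fold lower), the death ligand TNF10 was higher (log2 fold change 1.51) and the death promoter BAD lower (log2 fold change -1.97). TNF10 no longer passed with C. hamatus replicate 1 or 2 or G. acuticeps replicate 2 or 3 left out (log2 fold changes 1.07 to 1.5, adjusted p = 0.0511 to 0.108). Apoptosis members called higher numbered 1 to 2 with C. hamatus replicate 2 or G. acuticeps replicate 1, 2 or 3 left out. Apoptosis members called lower numbered 5 to 6 with C. hamatus replicate 1 or 2 left out. The apoptosis median log2 fold change was -0.43 in the full fit and -0.33 with C. hamatus replicate 1 alone.

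Outside the lists, the 10 highest and 10 lowest mnemonics with at least 5 counts in every library were single genes of varied function. PRPS2, which makes the ribose precursor of nucleotides, was among the 5 highest messages of C. hamatus, with 17635, 12087 and 8687 CPM against 94.4, 128 and 95.2 CPM in G. acuticeps (log2 fold change 6.92, SE 0.69, adjusted p = 0.000281). TNIP1, an inhibitor of NF-kappa-B signalling, had 374, 335 and 1046 CPM against 1.53, 4.18 and 2.81 CPM (log2 fold change 7.66, SE 0.76, adjusted p = 0.000274). TNIP1 came to 6.93 with C. hamatus replicate 3 left out. The splicing factor U2AF2, the actin cross-linker ACTN4 and the actin-binding CALD1 had log2 fold changes of 6.6, 6.51 and 6.62. CALD1 came to 5.99 with C. hamatus replicate 1 left out. The other higher ones besides KPYM were the ornithine carrier ORNT1, CML1, M1I1L and FA46C (log2 fold changes 6.87, 6.34, 6.3 and 6.3). CML1 came to 5.02 with C. hamatus replicate 2 left out. M1I1L came to 7.25 with G. acuticeps replicate 3 left out. FA46C came to 5.59 with C. hamatus replicate 1 left out.

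At the low end, the sugar-binding lectin LEG had 228, 155 and 293 CPM in C. hamatus and 24917, 21458 and 24523 CPM in G. acuticeps, the second highest mean of that species (log2 fold change -6.71, SE 0.71, adjusted p = 0.000324). The cell division phosphatase MPIP1 (CDC25A) had 3.25, 10.4 and 2.38 CPM against 317, 288 and 400.1 CPM (log2 fold change -6.0, SE 0.68, adjusted p = 0.000403). MPIP1 came to -6.89 with C. hamatus replicate 2 left out. CNDH2, a subunit of the condensin that compacts chromosomes, had 3.71, 2.78 and 2.38 CPM against 100.2, 126 and 167 CPM. The glycolytic enzyme G3P (GAPDH) had 27.8, 36.5 and 17.8 CPM against 389, 719 and 1816 CPM (log2 fold change -5.15, SE 0.73, adjusted p = 0.000899). G3P came to -4.44 with G. acuticeps replicate 3 left out. The histidine-tRNA ligase SYHC and the remaining CSRN2, CX038, NHRF1, DHR11 and SHLB1 had log2 fold changes of -5.39, -6.08, -5.63, -5.62, -5.58 and -5.52. SYHC came to -6.0 with C. hamatus replicate 1 left out. NHRF1 came to -6.9 with C. hamatus replicate 2 left out. DHR11 came to -6.25 with C. hamatus replicate 2 left out. G3P and SYHC serve nearly all cells. Without correction for length, the highest mean levels in C. hamatus were those of KACB, IGKC, KV401, PRPS2 and the ribosomal RS6 (16371, 6742 and 2378 CPM against 2686, 4629.7 and 6952 CPM, not called), and in G. acuticeps those of ACTS, LEG, KV401, HBB2 and KI20A, a kinesin of cell division (9523, 2216 and 3242 CPM against 9682, 8923 and 11843 CPM, not called).

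Besides HBA2, the highest mnemonics of G. acuticeps at 0 in all C. hamatus libraries were the adhesion protein NINJ1 (2003, 2163 and 2333 CPM) and the RNA-binding ROA1 (1379, 1094 and 774 CPM), at least 2784-fold and 1391-fold lower. The highest of C. hamatus at 0 in G. acuticeps were NR1AA (204, 5369.8 and 58.3 CPM), INSM2 (599, 397 and 335 CPM) and NATTL (492, 198 and 223 CPM), at least 2880.1-fold, 680.4-fold and 467-fold higher. The NR1AA bound came to 201 with C. hamatus replicate 2 left out. NR1AA came mostly from replicate 2, and INSM2 and NATTL were spread over all 3 libraries.

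Summing by mnemonic changed the call of many of the rows it touched. The 1275 mnemonics with 2 or more rows hold 2637 rows, of which 1347 were tested and 765 called. Of these called rows, 557 (72.8%) had a sum called the same way, 182 had a sum that was not called, and 26 had a sum called the opposite way. In 51 mnemonics, rows were called in both directions. Their sums were higher in 8, lower in 16 and not called in 27. Of 607 such mnemonics with at least 100 counts in each species, 116 (19.1%) had a different leading row in the 2 species. Over the heme list the rows gave 2 higher and 11 lower of 19 tested. Over the TGF-beta and BMP list they gave 21 higher and 6 lower of 45 tested. The heat shock list moved more, from 7 higher and 4 lower of 40 mnemonics to 12 higher and 6 lower of 46 rows tested. Both heat shock shares stayed under those of all rows (27.8 and 18.8%).

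The 8 most counted of these mnemonics show how rows part. Serum amyloid P (SAMP), a plasma protein of innate immunity, was counted in C. hamatus almost wholly on the pig row, with 6521, 4493 and 5892 counts, and in G. acuticeps mainly on the hamster row SAMP_MESAU, with 679, 1174 and 4334 counts. The pig row was higher (log2 fold change 4.85), the hamster row lower (-7.26), and the sum higher by 1.97 on the log2 scale (adjusted p = 0.0102). SAMP no longer passed with G. acuticeps replicate 2 left out (1.81, adjusted p = 0.0868). NHRF1, a scaffold below the membrane, had 2823, 2644 and 2912 counts on the macaque row in G. acuticeps and 0 in C. hamatus, where the rat row held 14, 78 and 34 counts. Its sum was lower. PI51A, a kinase of phosphoinositides, had a lower mouse row (log2 fold change -1.16) and a higher human row (9.35), and its sum was not called (log2 fold change 0.49, adjusted p = 0.514).

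For the cold-inducible RNA-binding protein CIRBP, the row CIRBP_PONAB was at 0 in G. acuticeps and at 841, 1045 and 814 counts in C. hamatus, while CIRBP_LITCT was lower. The sum was lower (log2 fold change -2.49, adjusted p = 0.0103). CIRBP no longer passed with G. acuticeps replicate 2 left out (-2.35, adjusted p = 0.0528). The tubulin TBA1C had a mouse row at 0 in G. acuticeps and a human row lower in C. hamatus, with a summed log2 fold change of -4.15. The ATP-gated channel P2RX5 had a human row at 0 in G. acuticeps and a rat row lower, with a sum of -3.37. The actin regulator COR1C had a lower human row and a higher mouse row, with a sum of -1.31. COR1C no longer passed with C. hamatus replicate 2 or G. acuticeps replicate 1, 2 or 3 left out (log2 fold changes -1.43 to -1.16, adjusted p = 0.053 to 0.09). Cathepsin K (CATK), the bone-degrading protease of osteoclasts, had a higher pig row (log2 fold change 7.51) and a lower rabbit row (-6.13), with a sum of 6.01. CATK came to 4.84 with C. hamatus replicate 2 left out. In CIRBP, TBA1C, P2RX5, COR1C, NHRF1, SAMP and CATK the sum kept the direction of the row with the most counts, and a smaller row held the opposite call. A sum follows its largest row in large part by construction.

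**Figure D5:**
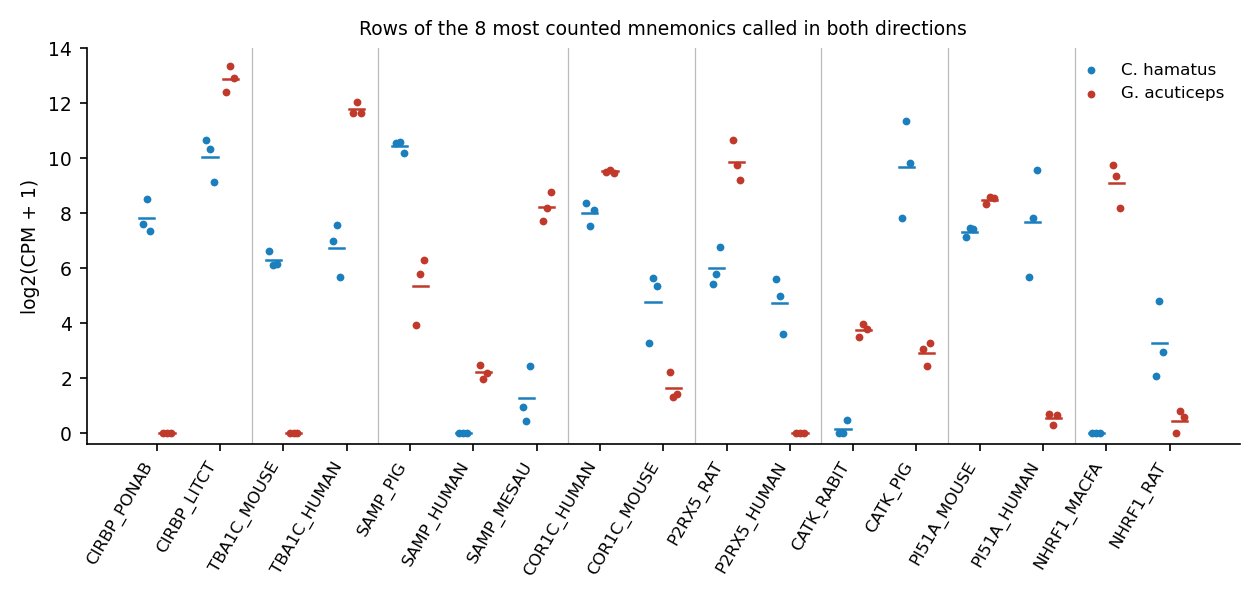
Rows of the 8 mnemonics are set side by side on the x axis, parted by grey lines, with log2(CPM + 1) on the y axis, 1 dot per library and a bar for each species mean. In SAMP, CATK, NHRF1 and PI51A the species means peak on different rows, although C. hamatus replicate 1 is higher on the mouse row of PI51A, and CIRBP_PONAB, TBA1C_MOUSE and P2RX5_HUMAN are at 0 in all G. acuticeps libraries.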

How the data were processed

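RNA of 9 head kidney libraries was read on Illumina TruSeq libraries, per the labels' protocols, and the 6 of C. hamatus and G. acuticeps were used here. The deposited table holds raw read counts for 12653 UniProt entries, whole numbers with no normalization. Which aligner, reference and counter were used is not given in the sources used here, so how reads of 2 species were placed on proteins of other organisms is unknown. Counts were tested with edgeR 4.0.16 in R 4.3.3 (filterByExpr, TMM factors, glmQLFit and glmQLFTest), adjusted over all rows or mnemonics tested, once on the rows and once after summing rows that share a mnemonic. The standard error is the absolute log2 fold change divided by the square root of F. The fit was tested on simulated data. Alternatives were DESeq2 1.42.0, other scaling factors and filters, glmTreat, a replicate block, all 9 libraries and each library left out. The fit with C. hamatus replicate 1 alone for its species was added after seeing the adrenal markers, and its lone library is assumed to vary like the G. acuticeps libraries. Figures were drawn with matplotlib 3.10.9.

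The comparison and the 25 gene lists were chosen with earlier results of these data known. Named genes are the called members of the red cell, iron and TGF-beta lists with the largest changes or at 0 in a species, up to 3 a direction of other lists, the 10 highest and lowest mnemonics outside them with at least 5 counts in every library and a mean of at least 100 in the higher species, the 5 highest per species, the 8 most counted mnemonics with rows called in both directions, and the 3 highest at 0 in a species. Other genes named, and the summed families of pyruvate kinase, actin, VEGFA and the hemoglobin chains, were chosen after their values were seen. No sequences are printed. The markers S12A3, PERM and CD79A are not analysed here. A result on 1 named gene is not reported here.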

Additional observations from a re-analysis of the deposited data

How the results depend on the processing

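Asking for at least 5 counts in every library lowered the calls to 1852 rows and 1813 mnemonics. Leaving out 1 library gave 2766 to 4219 rows and 2467 to 3920 mnemonics. DESeq2's own test called 4065 rows and 3798 mnemonics, and testing against a fold of 2 called 2797 and 2559. With the replicate number as a replicate block, 3070 rows and 2815 mnemonics were called. The labels do not say whether the numbers pair the libraries. The deviations of same-numbered libraries correlated at -0.230, -0.0150 and -0.173 over rows, and those of differently numbered ones at -0.106 to 0.229. These values cannot decide it, since deviations from a mean of 3 libraries are tied to each other. No call turned into the opposite call under the other alternatives, and 1 row and 1 mnemonic did with C. hamatus replicate 1 alone.

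Among the genes named, those whose sign turned were uncalled in the full fit except PAI1, PGRC1 and PNMT. With C. hamatus replicate 1 alone the log2 fold change was -0.82 for PAI1, -0.16 for PGRC1, -6.64 for PNMT, -2.10 for CP11A, -0.12 for BMPR2, -1.08 for EPOR, -1.10 for NGB1, -0.92 for PI51A, 0.48 for RL5A and 0.27 for SMAD5. With the replicate block it was -0.10 for KV401 and -0.089 for NGB1. With single libraries left out it ranged from -1.68 to 5.99 for CP11A, -0.28 to 0.68 for EPOR, -0.22 to 0.71 for ID4, -0.47 to 0.60 for KV401, -0.61 to 0.41 for NGB1, -0.28 to 0.77 for PI51A, -0.18 to 1.27 for RS6 and -0.58 to 0.15 for TGFR2. The causes were not tested. Over the 201 genes, 3192 alternative values kept direction and call, 229 lost the call, 20 gained it and 23 turned sign. Medians of the 25 lists have no call, and 70 of their alternative values moved beyond the spread among libraries. Single rows of few counts are limited by depth, the shallowest library holding 2501922 counts.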
